A study of Arabidopsis thaliana with 27 samples.

Results

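A set of 8 Arabidopsis genes known to respond to mitochondrial dysfunction was followed across 9 groups of rosettes, as 8 of the 22746 probe sets tested on the arrays. The genes are AOX1A (AT3G22370), NDB4 (AT2G20800), UPOX (AT2G21640), UGT74E2 (AT1G05680), ABCB4 (AT2G47000), AT2G32020, AT1G57630 and AT2G41730. The genes were selected on their known response and on their high signal in GO5 rosettes at ambient CO2 relative to WT, so for these 8 every comparison that holds the GO5 ambient arrays is given as a description with its standard error and no test. The probe sets of AOX1A, UGT74E2 and ABCB4 carry these names through the definition of the set, since the platform annotation used here does not list them, and the other 5 were paired with their gene by that annotation. The probe set of AT2G41730 has the suffix _x_at, which marks probes that may be shared with other transcripts.

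Mitochondria report their state to the nucleus through mitochondrial retrograde regulation. In Arabidopsis, the transcription factor ANAC017 is held in the endoplasmic reticulum membrane and released when mitochondrial electron transport is disturbed, and together with ANAC013 it raises a shared set of nuclear genes. AOX1A, the alternative oxidase, is the best known of them and passes electrons from ubiquinone to oxygen around complexes III and IV, and NDB4, an external NAD(P)H dehydrogenase, feeds electrons into the same chain without complex I. UPOX is a mitochondrial protein first described for its rise under oxidative stress. UGT74E2 attaches glucose to the auxin indole-3-butyric acid, and ABCB4 transports auxin across the plasma membrane. AT2G32020 encodes an acetyltransferase of the GNAT family and AT1G57630 a protein with a TIR domain, while no function is given here for AT2G41730.

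Plants of 3 genotypes were grown in soil for 3 weeks at 3000 ppm CO2, where photorespiration is low, under 16 h of light and 8 h of dark. All groups had light of 75 µmol photons per square metre per second, at 22 °C by day and 18 °C by night. GO5 plants express glycolate oxidase in their chloroplasts and so release H2O2 there during photorespiration, cat2 plants (cat2-2, a Salk insertion line) retain a small part of wild-type catalase activity and accumulate H2O2 from peroxisomes, and WT plants are Columbia-0. For each genotype, whole rosettes were taken 8 h after a transfer to 380 ppm CO2 (ambient), after the same 8 h at 3000 ppm CO2 (high), and at 0 h from plants at 3000 ppm, as 3 biological replicates of 2 pooled rosettes each, on 27 arrays in all. Each H2O2-forming genotype is a single line and no H2O2 amount was used here, so the line and the site of H2O2 cannot be told apart. The 0 h and 8 h harvests also differ in time of day and time in the light.

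The 27 arrays had median log2 signals between 5.28 and 5.51, and each correlated with the others of its group at a mean r of 0.969 to 0.994, lowest in the WT ambient group. Signal at the 3' end of the GAPDH control exceeded that at its 5' end, a measure of RNA integrity, by 1.49 ± 0.15 in GO5, 1.60 ± 0.11 in cat2 and 2.12 ± 0.61 in WT at ambient CO2 (SD, n = 3 each). WT ambient replicate 2 had the largest difference of all arrays, 2.82. That array was the lowest of its group for 7 of 8 members and for 34.1% of all probe sets. The GAPDH log2 difference was also carried as a covariate in a further fit. The transcripts of the glycolate oxidase transgene and of catalase were not analysed here, and neither were the 5 rosette leaf, 4 floral and 2 senescence markers listed for the check of tissue, since none was paired with a single-gene probe set. The 1 measured root marker of 4, EXPA7, had log2 signals of 2.49 ± 0.20 in GO5, 2.71 ± 0.10 in cat2 and 2.68 ± 0.18 in WT at ambient CO2 (SD, n = 3 each). In whole rosettes, fewer cells of a type and less RNA per cell cannot be told apart. All signals below are on a log2 scale and are compared within a probe set only.

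**Figure D1:**
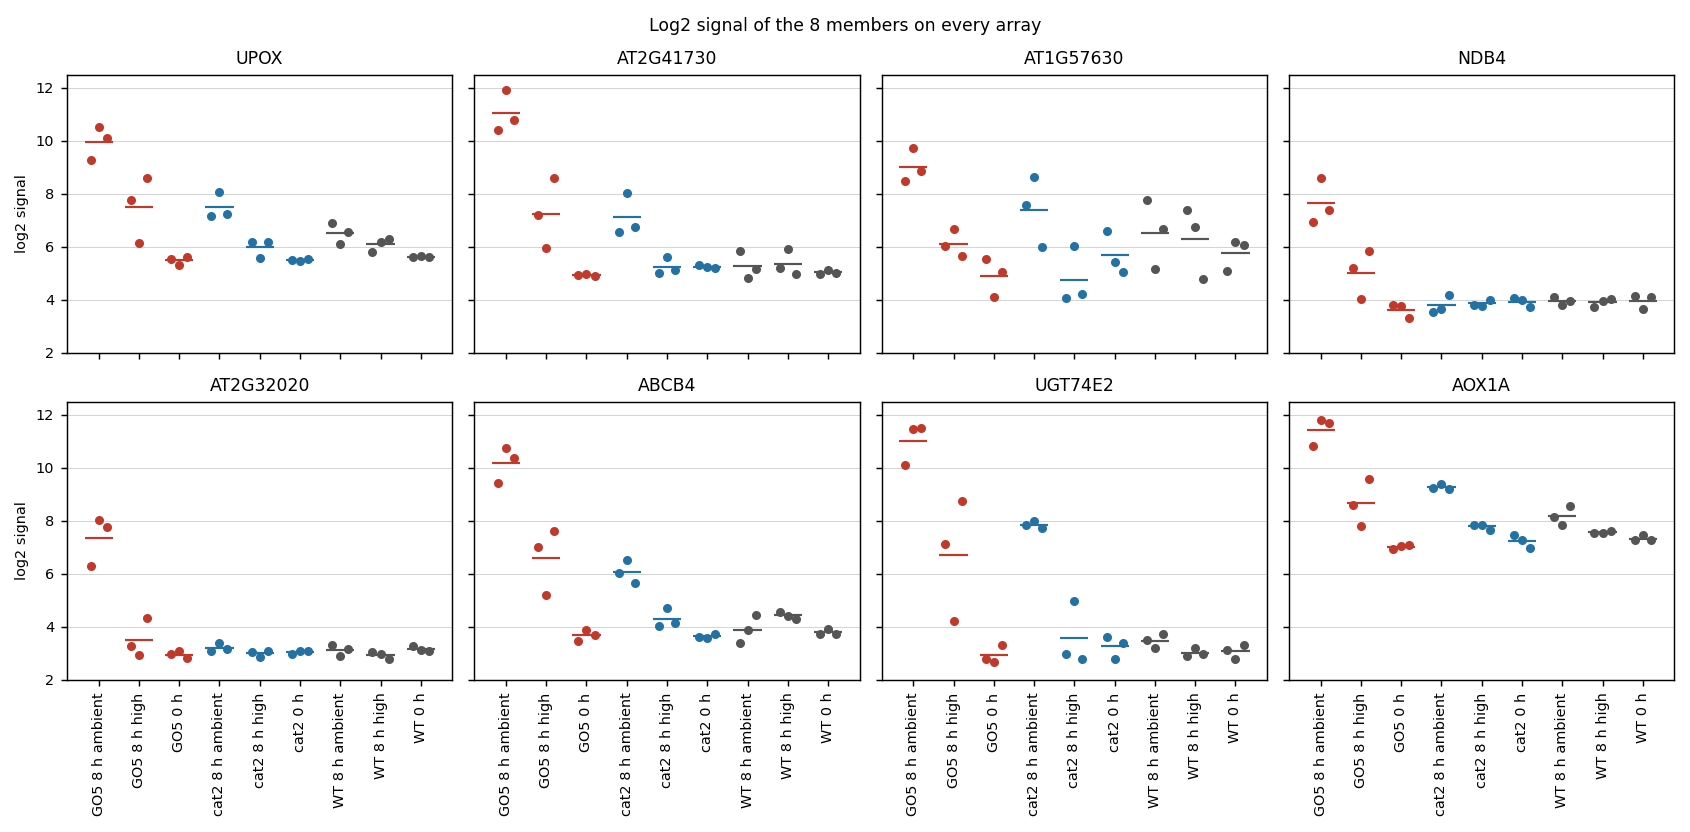
Log2 signal of each of the 8 genes on every array (points, 3 per group, replicates 1 to 3 drawn left to right) and the group mean (line), with GO5 in red, cat2 in blue and WT in grey, each at 8 h ambient, 8 h high and 0 h. All 8 genes are highest in GO5 at ambient CO2, and GO5 at high CO2 is spread widely between replicates. At ambient CO2, UGT74E2, ABCB4, AT2G41730, AOX1A and UPOX lie above WT on all 3 cat2 arrays, and of these limma called UGT74E2 and ABCB4 higher.

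The components of the respiratory bypass were both high in GO5 at ambient CO2. AOX1A had log2 signals of 10.81, 11.80 and 11.67 in GO5, 9.23, 9.40 and 9.19 in cat2, and 8.16, 7.83 and 8.56 in WT rosettes at ambient CO2. The 3 genotypes did not overlap, and AOX1A was higher by 3.25 ± 0.29 in GO5 than in WT (SE, n = 3 each), or 9.49-fold. NDB4 had 6.93, 8.62 and 7.37 in GO5, 3.55, 3.68 and 4.19 in cat2, and 4.11, 3.81 and 3.94 in WT at ambient CO2, a GO5 minus WT difference of 3.68 ± 0.36 or 12.9-fold. For NDB4 the GO5 arrays stood clear of all others, while cat2 and WT overlapped. NDB4 lay low in cat2 and WT, at percentile 33.1 and 34.4 of all probe sets, so its fold is a ratio to a weak signal. UPOX, the mitochondrial stress protein, had 9.29, 10.53 and 10.10 in GO5, 7.17, 8.08 and 7.22 in cat2, and 6.89, 6.10 and 6.57 in WT, and was 10.9-fold higher in GO5 than in WT.

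The auxin-related members had the largest differences of the 8. UGT74E2 had log2 signals of 10.11, 11.46 and 11.48 in GO5, 7.83, 8.00 and 7.75 in cat2, and 3.49, 3.22 and 3.74 in WT at ambient CO2. No genotype overlapped another, and the GO5 minus WT difference of 7.53 ± 0.71 (SE, n = 3 each), 185-fold, ranked 1 among the 22746 probe sets. ABCB4 had 9.44, 10.75 and 10.38 in GO5, 6.05, 6.51 and 5.67 in cat2, and 3.39, 3.87 and 4.44 in WT, again without overlap between genotypes. Its GO5 minus WT difference of 6.29 ± 0.41, or 78.2-fold, ranked 3. In WT at ambient CO2, UGT74E2 and ABCB4 lay low on the arrays, at percentile 29.2 and 33.8 of all probe sets. These folds, and those of cat2 over WT, are thus ratios to a weak signal.

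Among the remaining members, AT2G41730 had log2 signals of 10.41, 11.90 and 10.79 in GO5, 6.54, 8.04 and 6.76 in cat2, and 5.84, 4.83 and 5.18 in WT at ambient CO2, so that GO5 exceeded WT by 5.75 ± 0.48 and ranked 5. The acetyltransferase gene AT2G32020 had 6.29, 8.05 and 7.77 in GO5, against 3.08, 3.38 and 3.16 in cat2 and 3.31, 2.92 and 3.16 in WT. For AT2G32020 the GO5 arrays stood clear of both other genotypes and exceeded WT by 4.24 ± 0.32, while cat2 and WT overlapped. The TIR-domain gene AT1G57630 had 8.50, 9.71 and 8.86 in GO5, 7.57, 8.64 and 5.99 in cat2, and 7.77, 5.17 and 6.67 in WT. Its arrays scattered most in cat2 and WT, where the SD reached 1.33 and 1.31, and its GO5 minus WT difference of 2.49 ± 0.74, or 1.80 without WT ambient replicate 2, was the smallest of the 8.

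In GO5 against WT at ambient CO2, all 8 members lay above WT on every array, as did 10.3% of all probe sets, and the median difference was 3.96 over the 8, against -0.06 over all probe sets. Against cat2 at ambient CO2, 7 of 8 lay above on every GO5 array (12.0% of all probe sets), by up to 4.16 ± 0.32 for AT2G32020. AT1G57630, the exception, differed by 1.62 ± 0.74, and by 0.92 without cat2 ambient replicate 3. Against GO5 at high CO2, all 8 lay above on every GO5 ambient array (14.2% of all probe sets), by 2.47 ± 0.40 for UPOX up to 4.31 ± 0.71 for UGT74E2. Without GO5 high replicate 2 these differences were 1.79 for UPOX, 3.06 for UGT74E2 and 2.88 for ABCB4 (3.58 with all arrays), and without GO5 high replicate 3 that of UGT74E2 was 5.34. These counts describe the values with which the set was chosen. The 3 GO5 ambient replicates kept an order across members, with replicate 1 lowest for 8 of 8 members and for 25.5% of all probe sets.

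**Figure D2:**
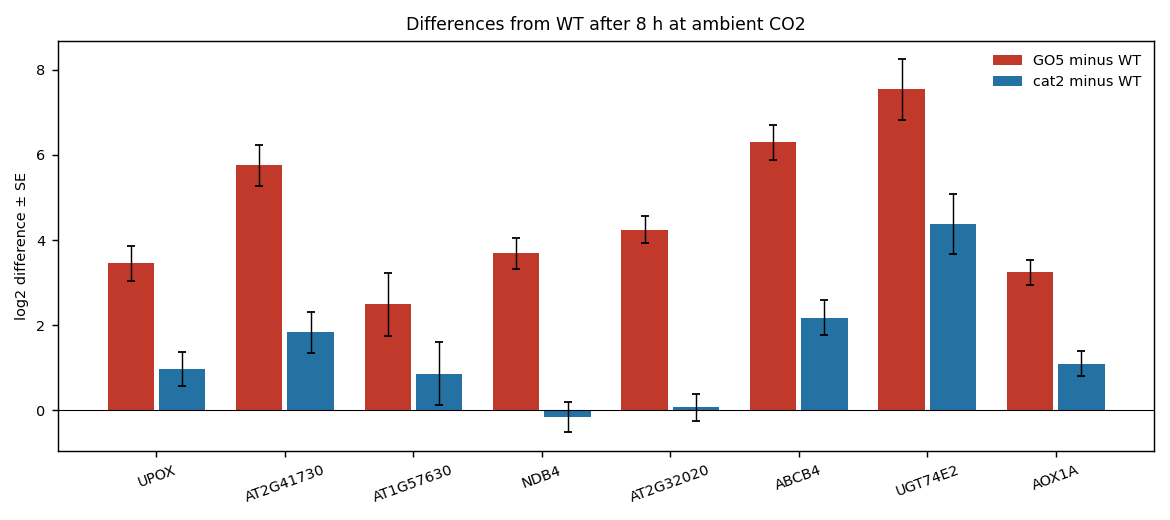
Log2 difference from WT after 8 h at ambient CO2 (bars, with the standard error from limma, n = 3 arrays per group) of the 8 genes, for GO5 and for cat2. GO5 bars run from 2.49 to 7.53, and cat2 bars from -0.15 to 4.37, largest for UGT74E2 and near 0 for NDB4 and AT2G32020. Both sets of bars share the 3 WT arrays.

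In cat2 rosettes at ambient CO2, UGT74E2 and ABCB4 rose relative to WT, while NDB4 and AT2G32020 stayed within a log2 unit of WT. This comparison was tested with limma over all probe sets with Benjamini-Hochberg adjustment, and it shares the WT arrays with the GO5 comparison on which the genes were selected. A low WT value on those arrays enters both, so the count of calls in cat2 is no independent support. UGT74E2 was higher in cat2 by 4.37 ± 0.71 (20.7-fold, adjusted p = 0.00220), and it ranked 4 among all probe sets. ABCB4 was higher by 2.17 ± 0.41 (4.51-fold, adjusted p = 0.00995). These 2 of 8 members passed, against 0.514% of all probe sets called higher. The call for UGT74E2 held with each of the 6 arrays left out, with differences of 4.24 to 4.50. The call for ABCB4 was lost without WT ambient replicate 1 (1.92, adjusted p = 0.0783), without cat2 ambient replicate 1 (2.19, adjusted p = 0.0581), without cat2 ambient replicate 2 (1.96, adjusted p = 0.0903), and with only the 6 arrays compared in the fit (adjusted p = 0.232).

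Of the members not called in cat2 against WT at ambient CO2, AT2G41730 differed by 1.83 ± 0.48 (limma adjusted p = 0.0845), AOX1A by 1.09 ± 0.29 (adjusted p = 0.0933), UPOX by 0.97 ± 0.40 (adjusted p = 0.281) and AT1G57630 by 0.86 ± 0.74 (adjusted p = 0.649). The first of these passed without cat2 ambient replicate 3 (adjusted p = 0.0483), and AOX1A passed without WT ambient replicate 3 (adjusted p = 0.0480). UGT74E2, ABCB4, AT2G41730, AOX1A and UPOX lay above WT on all 3 cat2 arrays, 5 of 8 members against 3.11% of all probe sets, and these 5 also reached an unadjusted p under 0.05, against 5.39% of all probe sets. NDB4 differed by -0.15 ± 0.36 (95% interval -0.89 to 0.59) and AT2G32020 by 0.08 ± 0.32 (95% interval -0.58 to 0.73). GO5 exceeded WT by 3.68 and 4.24 for these genes. Those values entered the selection and share the WT arrays, so the intervals were not tested against them. AT2G32020 lay near the low end of the arrays in cat2 and WT, at percentile 25.6 and 23.5 of all probe sets at ambient CO2. NDB4 was also low there, at percentile 33.1 and 34.4.

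Within cat2, 6 of 8 members were higher at ambient than at high CO2 by limma's test, against 5.16% of all probe sets called higher. UGT74E2 had log2 signals of 7.83, 8.00 and 7.75 at ambient CO2, against 2.99, 4.97 and 2.80 at high CO2, a rise of 4.27 ± 0.71 (adjusted p = 0.000356). AOX1A had 9.23, 9.40 and 9.19 at ambient CO2, against 7.86, 7.85 and 7.66 at high CO2, a rise of 1.49 ± 0.29 (adjusted p = 0.00192). ABCB4, UPOX and AT2G41730 rose by 1.79 ± 0.41, 1.51 ± 0.40 and 1.87 ± 0.48, and AT1G57630 by 2.63 ± 0.74 with overlapping arrays. Groups did not overlap for the other 5 of these 6 (10.4% of all probe sets). NDB4 (-0.06 ± 0.36) and AT2G32020 (0.20 ± 0.32) were not called. The cat2 ambient replicate 2 was the highest of its group for 7 of 8 members, and without it 2 members were called, UGT74E2 and AOX1A, with adjusted p = 0.123 for UPOX, 0.114 for AT2G41730, 0.165 for AT1G57630 and 0.0514 for ABCB4. AT1G57630 also fell out without cat2 ambient replicate 1 (adjusted p = 0.0892), cat2 high replicate 1 (0.112) or cat2 high replicate 3 (0.108) and with only the arrays compared (0.0714), AT2G41730 without cat2 high replicate 1 (0.0585) or 3 (0.0510), and UPOX without cat2 high replicate 2 (0.0779).

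Within WT, ambient against high CO2 gave 0 of 8 members called by limma (2.78% of all probe sets were called higher), and 1, AOX1A, at an unadjusted p under 0.05. The share of all probe sets under that unadjusted limit was not counted here, so the 1 member cannot be set against it. AOX1A had 8.16, 7.83 and 8.56 at ambient CO2, against 7.54, 7.53 and 7.64 at high CO2, a difference of 0.61 ± 0.29 (adjusted p = 0.246). AOX1A and UGT74E2, 2 of 8, lay above high CO2 on every ambient array (8.83% of all probe sets). UGT74E2 differed by 0.47 ± 0.71 and ABCB4 by -0.53 ± 0.41 in WT. The difference between the cat2 and the WT response to ambient CO2 was tested as an interaction, and it passed for 0 of 8 members (0.0923% of all probe sets passed as higher in cat2), with 5 at an unadjusted p under 0.05 (4.29% of all probe sets). Its largest values were 3.80 ± 1.00 for UGT74E2 (adjusted p = 0.206) and 2.32 ± 0.59 for ABCB4 (adjusted p = 0.176). Both the WT comparison and the interaction hold the WT ambient arrays that entered the selection of the genes. Low values on those arrays lower the WT difference and raise the interaction, so neither count is independent support.

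At high CO2, GO5 rosettes carried raised members after 8 h that they did not carry at 0 h. UGT74E2 had log2 signals of 7.14, 4.21 and 8.76 in GO5 at 8 h, against 2.78, 2.66 and 3.33 in GO5 at 0 h. ABCB4 had 7.00, 5.22 and 7.62 at 8 h, against 3.46, 3.90 and 3.69 at 0 h. AOX1A had 8.60, 7.80 and 9.58 at 8 h, against 6.94, 7.05 and 7.10 at 0 h. For these 3 genes every 8 h array was above every 0 h array, and replicate 2 was the lowest of the 3 at 8 h.

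In that comparison, which holds no GO5 ambient array, 6 of 8 members were called higher at 8 h by limma, against 7.00% of all probe sets. The rise was 2.93 ± 0.41 for ABCB4 (7.62-fold, adjusted p = 3.04e-05), 3.78 ± 0.71 for UGT74E2 (13.7-fold, adjusted p = 0.000648) and 1.63 ± 0.29 for AOX1A (3.10-fold, adjusted p = 0.000441). UPOX rose by 2.00 ± 0.40, AT2G41730 by 2.31 ± 0.48 and NDB4 by 1.39 ± 0.36 (adjusted p = 0.00996). AT1G57630 (1.22 ± 0.74) and AT2G32020 (0.56 ± 0.32) were not called, and for 7 of 8 members every 8 h array lay above every 0 h array (18.0% of all probe sets). Without GO5 high replicate 3, UGT74E2 differed by 2.75 and AOX1A by 1.17, and without GO5 high replicate 2 by 5.03 and 2.06, with the calls kept. NDB4 was lost without GO5 high replicate 3 (0.97, adjusted p = 0.0834) or GO5 0 h replicate 3 (1.23, adjusted p = 0.0548), and with only the arrays compared in the fit (adjusted p = 0.0663).

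The same 8 h at high CO2 called 0 of 8 members in cat2 (6.62% of all probe sets were called higher) and 0 of 8 in WT (6.88%), by limma, with 0 in each at an unadjusted p under 0.05. In cat2 the differences ranged between -0.94 for AT1G57630 and 0.65 for ABCB4, and in WT between -0.22 for AT2G32020 and 0.64 for ABCB4. For 3 of 8 members, UPOX, ABCB4 and AOX1A, every 8 h array lay above every 0 h array in cat2 and also in WT. In WT, AT2G32020 lay below on every array. The shares of all probe sets without overlap or under an unadjusted p of 0.05 were not counted for these 2 lines. The interaction, GO5 minus WT in the 8 h against 0 h difference, was added after the values were seen. It passed for 0 of 8 members by limma and for 0% of all probe sets, with 6 members at an unadjusted p under 0.05 (0.659% of all probe sets as higher). It was 3.84 ± 1.00 for UGT74E2 and 2.29 ± 0.59 for ABCB4. Without GO5 high replicate 2 it passed for these 2 members, at 5.09 (adjusted p = 0.00474) and 2.99 (adjusted p = 0.00780), among 0.0132% of all probe sets. Of the 12 fits with 1 array left out, the other 11 kept 0 calls. Over the 12 fits the interaction went as low as 2.81 for UGT74E2 and 1.79 for ABCB4.

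**Figure D3:**
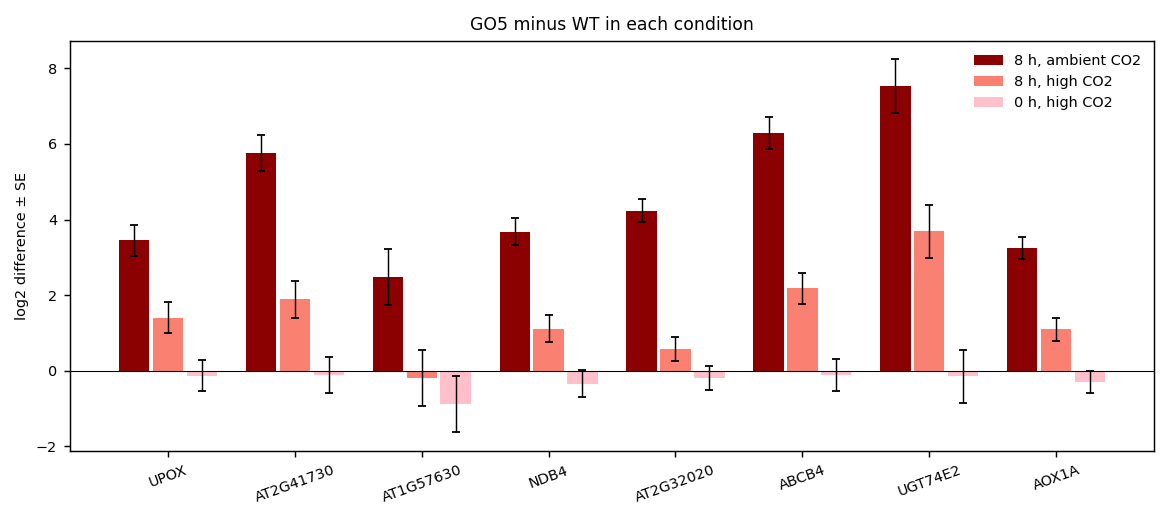
Log2 difference between GO5 and WT (bars, with the standard error from limma, n = 3 arrays per group) of the 8 genes at 8 h ambient CO2, 8 h high CO2 and 0 h. At 8 h ambient CO2 the bars lie between 2.49 and 7.53, at 8 h high CO2 between -0.19 and 3.69, and at 0 h between -0.88 and -0.11.

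Set against WT at high CO2 and 8 h, 7 of the 8 members had a higher mean in GO5 and AT1G57630 a lower one, and 0 of 8 passed limma's test. UGT74E2 had 7.14, 4.21 and 8.76 in GO5, against 2.89, 3.19 and 2.96 in WT, a difference of 3.69 ± 0.71 (adjusted p = 0.126). ABCB4 had 7.00, 5.22 and 7.62 in GO5, against 4.57, 4.43 and 4.30 in WT, a difference of 2.18 ± 0.41 (adjusted p = 0.126). In both genes the groups did not overlap, as in 4 of 8 members (5.24% of all probe sets). The other members differed by 1.89 ± 0.48 for AT2G41730, 1.40 ± 0.40 for UPOX, 1.11 ± 0.36 for NDB4, 1.09 ± 0.29 for AOX1A, 0.58 ± 0.32 for AT2G32020 and -0.19 ± 0.74 for AT1G57630. Only 3 probe sets, or 0.0132%, were called higher in this comparison, and 6 of 8 members reached an unadjusted p under 0.05, against 1.46% of all probe sets.

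These counts differed without 1 array. GO5 high replicate 2 was the lowest of its group for 7 of 8 members (36.6% of all probe sets) and replicate 3 the highest for 7 of 8 (38.6% of all probe sets), with AT1G57630 in the opposite order. AT2G41730, for example, had 7.21, 5.95 and 8.59 on the GO5 high replicates, UPOX 7.78, 6.14 and 8.58, and NDB4 5.19, 4.02 and 5.85. Without replicate 2, limma called 5 of 8 members higher than WT among 16 probe sets in all (0.0703%): UGT74E2 by 4.94 (adjusted p = 3.59e-05), ABCB4 by 2.88 (adjusted p = 9.17e-05), UPOX by 2.08 (adjusted p = 0.00594), AOX1A by 1.52 (adjusted p = 0.0208) and AT2G41730 by 2.54 (adjusted p = 0.0223). Leaving out the array that was lowest for these members raises their GO5 mean. Of the 6 fits with 1 array of these groups left out, the other 5 kept 0 calls. Over the 6 fits the difference went as low as 2.66 for UGT74E2, 1.67 for ABCB4, 0.86 for UPOX, 0.63 for AOX1A and 1.22 for AT2G41730. The median log2 signal was 5.47, 5.51 and 5.46 on GO5 high replicates 1, 2 and 3, and that of replicate 2 was the highest of all arrays. Their GAPDH 3' minus 5' differences were 1.76, 1.85 and 1.89. Why replicate 2 was low for these members was not tested. Against cat2 at high CO2, a comparison added after the values were seen, GO5 also gave 0 of 8 calls (0.0176% of all probe sets were called higher) and 6 at an unadjusted p under 0.05 (2.05% of all probe sets). ABCB4 came nearest there, at 2.33 ± 0.41 (adjusted p = 0.0616), and without GO5 high replicate 2 the calls were ABCB4, UGT74E2, UPOX and AT2G41730, among 0.0703% of all probe sets. The other 5 of 6 fits with 1 array left out kept 0 calls against cat2.

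At 0 h, when all plants were still at high CO2, limma called 0 of 8 members in GO5 against WT (0.00879% of all probe sets were called higher) and 0 of 8 in cat2 against WT (0.00440%), with 0 members in each at an unadjusted p under 0.05. AOX1A had 6.94, 7.05 and 7.10 in GO5, 7.46, 7.26 and 6.98 in cat2, and 7.26, 7.46 and 7.26 in WT. GO5 minus WT was negative for all 8, between -0.88 and -0.11. At 8 h and high CO2, cat2 against WT likewise gave 0 of 8 calls (0.00440% called higher) and 0 at an unadjusted p under 0.05, with AT1G57630 lowest at -1.54 ± 0.74. For these comparisons the share of all probe sets at an unadjusted p under 0.05 was not counted.

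Ordered by level, GO5 at ambient CO2 came first for all 8 members, and for 7 of 8 its 3 arrays lay above every array of the next group. The genes were selected on high signal in these GO5 arrays, so the first place describes the selection and is no support. The share of all probe sets with GO5 at ambient CO2 first was not counted. The next place was held by cat2 at ambient CO2 for AOX1A (9.28 ± 0.11), UGT74E2 (7.86 ± 0.13) and AT1G57630 (7.40 ± 1.33), and by GO5 at high CO2 for ABCB4 (6.61 ± 1.25), AT2G41730 (7.25 ± 1.32), UPOX (7.50 ± 1.24), NDB4 (5.02 ± 0.92) and AT2G32020 (3.52 ± 0.72), all with SD and n = 3. Where GO5 at high CO2 and cat2 at ambient CO2 were neighbours, as for the first 2 and for ABCB4, AT2G41730, UPOX and AT2G32020, their gap was smaller than the larger of their SDs. Among neighbours that held neither of these groups nor GO5 at ambient CO2, arrays overlapped except for AOX1A (cat2 at high CO2 above WT at high CO2, and the last above WT at 0 h), UPOX (cat2 at 0 h below WT at 0 h) and AT2G41730 (GO5 at 0 h below WT at 0 h). For AOX1A these means were 7.79 ± 0.11 in cat2 at high CO2, 7.57 ± 0.06 in WT at high CO2 and 7.33 ± 0.11 in WT at 0 h.

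**Figure D4:**
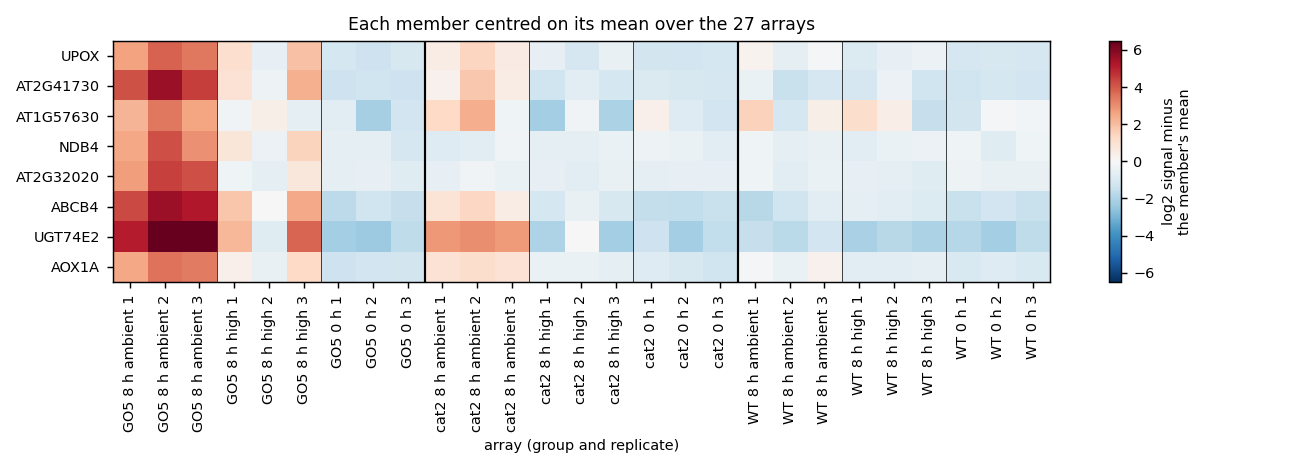
Log2 signal of each of the 8 genes minus that gene's mean over the 27 arrays (colour), with arrays in columns by genotype, condition and replicate. GO5 ambient columns are red in every row, and the mean over the 8 rows is 0.82, -0.34 and 1.66 on GO5 high replicates 1, 2 and 3.

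The members varied together, apart from AT1G57630. Over the 27 arrays the 28 pairs had Pearson correlations between 0.605 and 0.977 with a median of 0.901, and without the 3 GO5 ambient arrays the median over 24 arrays was 0.624, with a range of -0.05 to 0.93. After each group's mean was removed, so that only differences between replicates counted, the median was 0.721, with a range of -0.09 to 0.85. These correlations describe arrays that share groups, and the replicates share whatever moved a whole array. The values over 27 arrays and those after removal of group means include the GO5 ambient arrays on which the genes were selected, so they are no independent support. The mean over members deviated most from its group mean on GO5 arrays. It did so by -1.05 and 0.95 on GO5 high replicates 2 and 3, and by -0.74 and 0.64 on GO5 ambient replicates 1 and 2. Outside those GO5 groups the largest deviation was 0.44, on cat2 ambient replicate 2. AT1G57630 was least like the others, with r = 0.732 over 27 arrays to the mean of the other 7, against 0.897 to 0.989 for each of the rest. Its correlations with single members ran from -0.05 to 0.49 without the GO5 ambient arrays. They ran from -0.09 to 0.35 after each group's mean was removed.

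Other genes known from mitochondrial dysfunction were also high in GO5. This list and the 3 that follow were drawn up with earlier results of these arrays known, so their counts describe the genes and are no independent evidence of a direction. Of 11 listed, 6 were measured by a single-gene probe set, and limma called 6 of 6 higher in GO5 than in WT at ambient CO2, against 8.59% of all probe sets, with a median difference of 4.25. AT2G04050, which encodes a MATE transporter, had 9.21, 10.35 and 9.90 in GO5, 2.95, 3.12 and 3.14 in cat2, and 3.14, 2.76 and 2.69 in WT, a GO5 minus WT difference of 6.95 ± 0.58 (adjusted p = 8.17e-08). Its neighbour AT2G04070, of the same family, was higher in GO5 by 4.82 ± 0.35 (adjusted p = 1.38e-08). AT5G51440, a mitochondrial small heat shock protein gene, had 7.24, 9.06 and 8.01 in GO5, 6.68, 8.17 and 6.98 in cat2, and 3.65, 3.06 and 3.51 in WT.

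In cat2 against WT at ambient CO2, AT5G51440 alone of these 6 was called, at 3.87 ± 0.73 (limma adjusted p = 0.00975), and the call was lost without cat2 ambient replicate 2 (3.42, adjusted p = 0.0900), with only the arrays compared in the fit (adjusted p = 0.0561) and with the GAPDH difference as a covariate (adjusted p = 0.0502). AT5G51440 exceeded WT by 4.69 ± 0.73 in GO5. Its WT 0 h arrays reached 3.84, 4.47 and 6.59, so that it was not uniformly low outside ambient CO2. AT2G04050 differed by 0.20 ± 0.58 between cat2 and WT at ambient CO2 (adjusted p = 0.918). At high CO2 and 8 h, AT2G04050 had 6.90, 4.56 and 8.94 in GO5, against 2.95, 2.74 and 2.89 in WT, and was 1 of the 3 probe sets called, at 3.94 ± 0.58 (adjusted p = 0.00682). That call was lost without GO5 high replicate 1 (adjusted p = 0.0511), without WT high replicate 2 (adjusted p = 0.0719) and with only the arrays compared in the fit (adjusted p = 0.999).

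**Figure D5:**
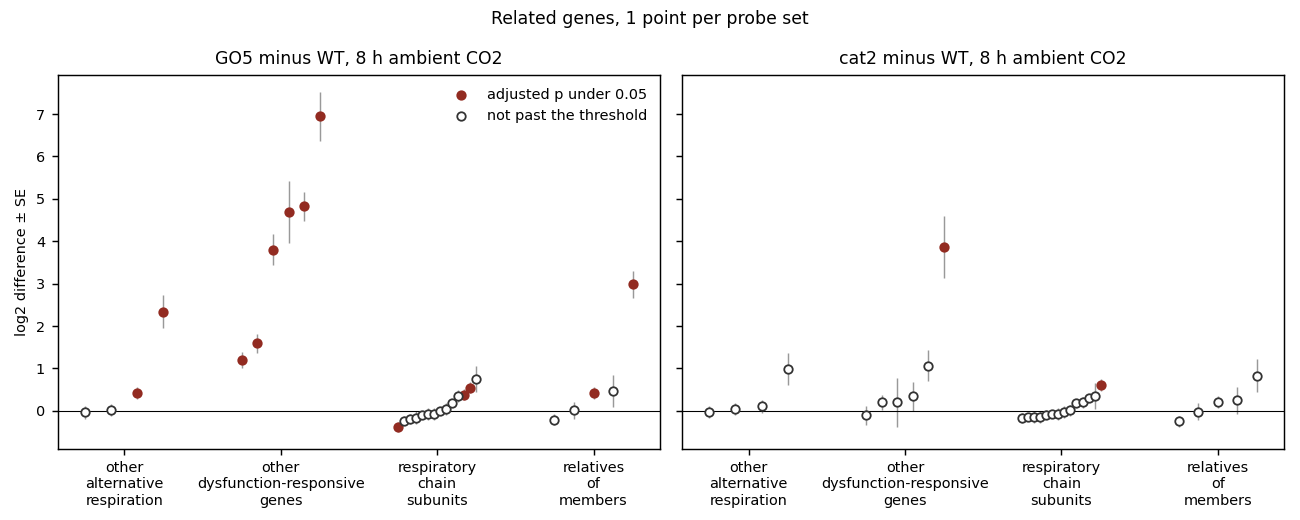
Log2 difference (points, with the standard error from limma, n = 3 arrays per group) between GO5 and WT and between cat2 and WT at 8 h ambient CO2, 1 point per probe set, in 4 lists of genes related to the 8. Filled points have an adjusted p under 0.05. In GO5 all 6 dysfunction-responsive genes are filled and reach 6.95, whereas the 14 respiratory chain probe sets lie between -0.38 and 0.76.

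The rest of the alternative respiratory pathway moved less evenly. Of 12 listed genes 4 were measured, and 2 were called higher in GO5 than in WT at ambient CO2, against 8.59% of all probe sets. NDB2, another external NAD(P)H dehydrogenase, had 7.79, 9.08 and 8.71 in GO5, 7.18, 7.73 and 6.60 in cat2, and 6.79, 4.99 and 6.77 in WT, a GO5 minus WT difference of 2.34 ± 0.39 (limma adjusted p = 0.000316; 0.105 with only the arrays compared in the fit). NDB3 differed by 0.43 ± 0.14 with overlapping arrays (adjusted p = 0.0387), a call lost without GO5 ambient replicate 2 (adjusted p = 0.126), GO5 ambient replicate 3 (0.174) or WT ambient replicate 3 (0.169) and also with quantile normalization (0.0718), median centring (0.136), the trend and robust eBayes settings (0.0505), the GAPDH covariate (0.0789) and only the arrays compared (0.299). NDB1 differed by 0.01 ± 0.15 and the internal dehydrogenase gene NDC1 by -0.04 ± 0.15. In cat2 against WT, 0 of the 4 were called by limma (0.514% of all probe sets were called higher) and 1 reached an unadjusted p under 0.05 (5.39% of all probe sets as higher), with NDB2 at 0.99 ± 0.39 (adjusted p = 0.244).

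For the standard respiratory chain, 14 probe sets of 13 of 27 listed genes were measured, with a median GO5 minus WT difference of -0.03 at ambient CO2. SDH1-1, the flavoprotein subunit of complex II, was higher in GO5 by 0.55 ± 0.13 (limma adjusted p = 0.00611) and in cat2 by 0.61 ± 0.13 (adjusted p = 0.0291). The cat2 call was lost without WT ambient replicate 1 (0.43, adjusted p = 0.174), cat2 ambient replicate 1 (0.61, adjusted p = 0.124) or cat2 ambient replicate 2 (0.53, adjusted p = 0.181), and with the GAPDH covariate (adjusted p = 0.0502). One of the probe sets of SDH2-1, the iron-sulfur subunit, was higher in GO5 by 0.38 ± 0.12 (adjusted p = 0.0355) and the other differed by 0.05 ± 0.14, and AT4G02580, a complex I subunit gene, was lower (log2 difference -0.38 ± 0.11, adjusted p = 0.0183), as were 9.85% of all probe sets. The SDH2-1 call was lost without GO5 ambient replicate 2 (adjusted p = 0.132) or 3 (0.0775), or without WT ambient replicate 2 (0.118) or 3 (0.0705), with median centring (0.134) or with the GAPDH covariate (0.25, adjusted p = 0.272), and that of AT4G02580 without GO5 ambient replicate 2 (0.123), WT ambient replicate 1 (0.0887) or WT ambient replicate 3 (0.0510). Both calls, and that of SDH1-1 in each line, were lost with only the arrays compared in the fit.

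Relatives of the members gave 2 of 5 measured genes called higher in GO5 than in WT at ambient CO2, of 14 listed, against 8.59% of all probe sets. AT2G32030, the acetyltransferase gene next to AT2G32020, had 6.01, 7.62 and 7.23 in GO5, 4.39, 4.64 and 3.61 in cat2, and 4.53, 3.67 and 3.69 in WT, a GO5 minus WT difference of 2.99 ± 0.32 (limma adjusted p = 1.91e-06). UGT74B1 differed by 0.42 ± 0.14 (adjusted p = 0.0356), a call lost without GO5 ambient replicate 1 (0.0519) or 2 (0.208) or WT ambient replicate 1 (0.230), and also with median centring (0.0778), the GAPDH covariate (0.0710) and only the arrays compared (0.330). UGT74D1 and UGT74F1, of the same glucosyltransferase group as UGT74E2, differed by 0.47 ± 0.39 and -0.21 ± 0.14 and were not called. In cat2 against WT, 0 of the 5 relatives passed limma's test (0.514% of all probe sets were called higher) and 1 reached an unadjusted p under 0.05 (5.39% as higher).

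The 6 genes whose pattern over the 27 arrays was most like the mean of the 8 members, among 1251 single-gene probe sets whose group means varied with an SD of at least 0.5, were AT5G43450 (r = 0.983), AT1G24095 (0.965), AT5G14730 (0.964), AT2G04070 (0.955), UGT73B5 (0.941) and AT3G09405 (0.931). AT5G43450, an oxygenase gene that is also on the list of dysfunction-responsive genes, exceeded WT by 3.80 ± 0.37 in GO5 and by 1.07 ± 0.37 in cat2 at ambient CO2, and by 1.08 ± 0.37 in GO5 at high CO2. AT2G04070 exceeded WT by 4.82 ± 0.35 in GO5 and by 0.34 ± 0.35 in cat2 at ambient CO2. UGT73B5, another glucosyltransferase, exceeded WT by 2.98 ± 0.35 in GO5 and by 1.22 ± 0.35 in cat2 at ambient CO2. All 6 were picked by their likeness to the members on these same arrays, GO5 ambient included. Their differences therefore describe them and are no independent support.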

How the data were processed

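Rosette RNA was labelled with biotin and hybridised to 27 Affymetrix arrays, per the labels. The values analysed are the deposited log2 signals of the series' value table, normalized by the authors; the submitters' processing notes name RMA, GCRMA, affy and R 2.15.0 without saying which gave these values. No genome build is given in the sources used here. Of 22810 probe sets, 64 control probe sets were left out of the tests, and no filter on low signal was applied. Array signals carry no read depth, so the number of arrays limits precision, and 21.2% of values lay between 2 and 3.

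A mean per group was fitted over all 27 arrays with limma 3.58.1 in R 4.3.3 (lmFit, eBayes), and p-values were adjusted by Benjamini-Hochberg over 22746 probe sets in each contrast (threshold 0.05). Of 17 contrasts, 13 were tested and 4 that hold GO5 ambient arrays were only described for the members; 2 of the 17 were added after the values were seen. Genes were named through the platform annotation, which gave 1 gene to 13513 probe sets, several to 503 and none to 8730. Named genes are the 8 members, up to 3 called genes of each list in GO5 and up to 2 in cat2 against WT at ambient CO2, and the 6 genes most alike in pattern; other genes named were chosen after their values were seen. The members and lists were chosen with earlier results of these data known. The lists of retrograde regulators (12 genes) and mitochondrial chaperones (9 genes) had 0 measured members by single-gene probe sets, and promoter motifs were not analysed here. Replicates are biological per the labels. On simulated data with 100 probe sets changed at each size, the test recovered 73 at log2 1 and 97 at log2 2 in cat2 against WT at ambient CO2, 83 and 98 in GO5 against WT at high CO2, and 55 and 91 for the cat2 minus WT interaction. The simulated noise was normal, independent between arrays, and for each probe set equal in every group. UGT74E2 had an SD of 2.31 in GO5 and 0.16 in WT at high CO2, so these rates do not give the power for the members. Alternatives were quantile normalization, median centring, eBayes with trend and robust settings, a filter at percentile 40, only the arrays compared, a replicate block, each array left out and, added later, the GAPDH difference as covariate and 2 arrays left out.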

Additional observations from a re-analysis of the deposited data

How the results depend on the processing

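No difference that passed the test changed direction under any alternative run; some differences that were not called changed sign, among them NDB2 in GO5 against WT at high CO2 (-0.12, and 0.01 without GO5 high replicate 2) and in GO5 against cat2 at high CO2 (0.21, and -0.03 without GO5 high replicate 3). Quantile normalization, the eBayes settings and the GAPDH covariate left every count of called members as it was. In GO5 against cat2 at high CO2, 1 member (ABCB4) was called with median centring and 1 with the filter on dim probe sets, against 0. With only the arrays compared in the fit, cat2 against WT at ambient CO2 had 1 member called in place of 2, and 8 h against 0 h at high CO2 had 1 in WT (ABCB4) and 1 in cat2 (AOX1A) in place of 0, while cat2 ambient against high CO2 and GO5 at 8 h against 0 h had 5 in place of 6; these fits have fewer arrays. Without WT ambient replicate 1 and cat2 ambient replicate 3, cat2 against WT at ambient CO2 had 3. The filter left 6 members in the fit, of which 5 were called in GO5 at 8 h against 0 h, and the median GO5 minus cat2 difference at ambient CO2 was then 2.82, against 3.50. Leaving out 1 array at a time gave 1 to 3 calls in cat2 against WT at ambient CO2, 2 to 6 in cat2 ambient against high CO2, 5 to 6 in GO5 at 8 h against 0 h, 0 to 5 in GO5 against WT and 0 to 4 in GO5 against cat2 at high CO2, and 0 to 2 for the GO5 minus WT interaction in the 8 h response. The median member difference then ranged over 3.55 to 4.41 in GO5 against WT at ambient CO2, 3.14 to 3.90 against cat2, 2.94 to 3.65 for GO5 ambient against high CO2, and 2.77 to 3.59 for its excess over WT. Same-numbered arrays correlated above 0.1 in every pair for 6 of 36 pairs of groups, so the numbers do not pair the samples throughout; with the replicate block, cat2 against WT at ambient CO2 again had 2 members called, and no other member count changed. The block did call 1 of the 5 relatives in that comparison, in place of 0. Counts over all probe sets were less steady: cat2 against WT at ambient CO2 called 160, 7 with only the arrays compared, 433 without WT ambient replicate 1 and cat2 ambient replicate 3, and 61 to 1072 with 1 array left out, while GO5 against WT called 4193, and 206 with only the arrays compared. Causes were not tested.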
